A study of Mus musculus with 23 samples.

Results

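The GATA factors and their FOG cofactors comprised 8 genes, Gata1, Gata2, Gata3, Gata4, Gata5, Gata6, Zfpm1 (FOG1) and Zfpm2 (FOG2), of 20145 genes with a named probe on the array. A gene was included when the RefSeq identifier of a probe mapped to its symbol, and it was followed by its probe with the highest mean. All 8 genes passed the filter on low signal, as did 15202 of the 20145 genes. RNA came from a mouse ES cell line, given in the labels as A2lox on C57BL/6, that carries human HA-tagged RUNX1-ETO under a TET-responsive promoter and keeps wild-type RUNX1. Haemogenic endothelium (HE, KIT+Tie2+CD41-), HE2 (KIT+Tie2+CD41+) and CD41+KIT+Tie2- progenitors were sorted on day 2 of blast culture, without doxycycline (Dox) or with 0.1 µg per ml of it from day 1. Myeloid progenitors were grown from day 2 progenitors in expansion medium and harvested on day 3, without Dox or after 12 h with it. The uninduced groups carry the same transgene, and no array of Dox-treated cells without it was analysed here, so that Dox and the fusion protein cannot be told apart. The design asks how each gene changes along the course from HE to myeloid progenitors and how the response to induction depends on the population. Time with Dox, the stage at its start and the medium differed between the sorted populations and myeloid progenitors. Where their responses are compared, these cannot be told apart from the population. The paper reports that very few Tie2- progenitors arose after early induction, so the induced progenitors are the cells that still formed.

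GATA factors bind the DNA sequence GATA through zinc fingers and drive lineage choice. GATA2 acts in haemogenic endothelium and in stem and progenitor cells, and GATA1 replaces it at shared sites as erythroid cells and megakaryocytes form. GATA3 is known for T cells and innate lymphoid cells, while GATA4, GATA5 and GATA6 act in heart and endoderm. The FOG proteins bind no DNA of their own but dock on GATA factors, FOG1 mainly in erythroid cells and megakaryocytes, where it recruits the NuRD repressor complex, and FOG2 mainly with GATA4 in the heart.

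Promoters of the haematopoietic members whose levels changed are shown to give the sequence at starts annotated for them, which need not be all of their starts. Each run is 5′ to 3′ and holds 250 bases before and 50 bases from the start of transcription, from RefSeq on GRCm38.p6. Matches are given for promoters of Gata1, Gata2, Gata3, Gata5 and Zfpm1, and not for Gata4, Gata6 and Zfpm2. Capitals mark a match on either strand to a GATA motif, spelled AGATAA in its first form, AGATAG in another, TGATAA in another and TGATAG in the last, or to a RUNX motif, spelled TGTGGT in its main form and TGCGGT in the other. Of 32851 promoters of this length, 29.8% held the GATA motif and 22.4% the RUNX motif.
Gata1, chrX:7967861-7968160, minus strand: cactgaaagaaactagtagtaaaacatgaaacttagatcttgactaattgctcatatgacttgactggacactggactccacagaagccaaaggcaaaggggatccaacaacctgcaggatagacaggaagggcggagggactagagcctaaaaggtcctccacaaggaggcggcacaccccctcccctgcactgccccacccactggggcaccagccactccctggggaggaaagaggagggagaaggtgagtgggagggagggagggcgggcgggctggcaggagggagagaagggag
Gata2, distal start, chr6:88193641-88193940, plus strand: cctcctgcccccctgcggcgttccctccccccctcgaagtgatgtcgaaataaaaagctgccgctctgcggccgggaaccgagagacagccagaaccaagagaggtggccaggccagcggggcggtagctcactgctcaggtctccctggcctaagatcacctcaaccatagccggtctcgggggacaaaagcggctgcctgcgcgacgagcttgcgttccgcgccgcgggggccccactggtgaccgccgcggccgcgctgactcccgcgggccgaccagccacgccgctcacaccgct
Gata2, proximal start, chr6:88198414-88198713, plus strand: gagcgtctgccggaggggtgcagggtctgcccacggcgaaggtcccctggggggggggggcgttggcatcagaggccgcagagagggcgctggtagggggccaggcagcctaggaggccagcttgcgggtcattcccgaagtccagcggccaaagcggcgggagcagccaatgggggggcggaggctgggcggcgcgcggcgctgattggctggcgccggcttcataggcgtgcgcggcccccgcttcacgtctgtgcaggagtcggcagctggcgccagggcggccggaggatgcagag
Gata3, chr2:9878551-9878850, minus strand: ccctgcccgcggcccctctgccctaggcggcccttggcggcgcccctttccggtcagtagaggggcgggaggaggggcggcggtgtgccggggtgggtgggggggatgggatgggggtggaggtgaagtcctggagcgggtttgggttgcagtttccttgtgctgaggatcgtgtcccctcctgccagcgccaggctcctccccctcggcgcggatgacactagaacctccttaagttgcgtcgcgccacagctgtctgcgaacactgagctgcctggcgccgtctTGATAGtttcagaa
Zfpm1, chr8:122281891-122282190, plus strand: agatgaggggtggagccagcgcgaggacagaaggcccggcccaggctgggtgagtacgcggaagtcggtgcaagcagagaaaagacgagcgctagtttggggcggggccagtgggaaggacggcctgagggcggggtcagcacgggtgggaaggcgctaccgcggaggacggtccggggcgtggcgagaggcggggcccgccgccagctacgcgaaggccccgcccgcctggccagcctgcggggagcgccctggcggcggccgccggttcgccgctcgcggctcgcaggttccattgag
The Gata1 and Gata3 windows lie inside the annotated genes, which extend upstream to chrX:7976663 and chr2:9887953. No window at those ends was searched. The Gata3 window held 1 match to the GATA motif, after the start, and these letters were not found in the other 4 windows. The RUNX letters were not found in any of the 5, while the Gata5 promoter, not printed since Gata5 was never called, held 1 match to TGTGGT before the start.

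The comparisons rest on 22 arrays, with 3 arrays labelled as replicates in each group except the uninduced and the induced CD41+KIT+Tie2- progenitors, which had 2 each. Between 48.83 and 78.39% of the spots of an array were well above background and no spot was saturated. A further uninduced progenitor array has conflicting labels (techrep3 in the title, replicate 3 in the source name) and entered the normalization but not the tests. For induced myeloid array 3 the labels conflict too (biorep in the title, TechReplicate in the source name), and it was used as replicate 3. All myeloid progenitor arrays, this additional array and induced progenitor array 2 lay on slide 3 and were scanned on another day than the rest, so that slide 3 and the myeloid culture cannot be told apart for most arrays. Among the arrays in the fit, only the induced progenitors lay on both scan days. A scan-day block thus rests on the difference between their 2 arrays, as does the tie of slide 3 in a slide block. Such a block cannot separate batch from the spread of these arrays. Where a comparison holds induced progenitors and no myeloid arrays, a scan-day block gives the same change as leaving out induced progenitor array 2. The mouse Runx1t1 probe, whose gene is the ETO part of the fusion, read higher with Dox in all 4 populations with no overlap between groups, by 1.24 (HE), 2.08 (HE2), 3.96 (progenitors) and 2.06 (myeloid progenitors) on the log2 scale. In HE this Runx1t1 difference missed the threshold (adjusted P = 0.0155, limma), and whether the mouse probe detects the human transcript was not tested.

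The labelled populations were checked against marker genes, given as the mean log2 intensity of a list on each array. The 6 endothelial markers were between 11.98 and 13.72 on uninduced HE arrays and between 9.70 and 10.42 on uninduced myeloid progenitor arrays. The uninduced myeloid progenitors held the myeloid markers at 10.12 to 10.57, but also the erythroid markers at 15.57 to 16.01 and the megakaryocyte markers at 11.29 to 11.53. In uninduced progenitors the erythroid markers were at 11.71 to 11.89 and the megakaryocyte markers at 8.51 to 9.0. With Dox, the endothelial markers were at 12.01 to 12.38 in myeloid progenitors and at 11.54 to 11.76 in progenitors, against 9.98 to 10.05 in uninduced progenitors. The part of these other cell types in the values below was not tested, and in bulk RNA fewer cells of a type and less RNA per cell cannot be told apart.

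**Figure D1:**
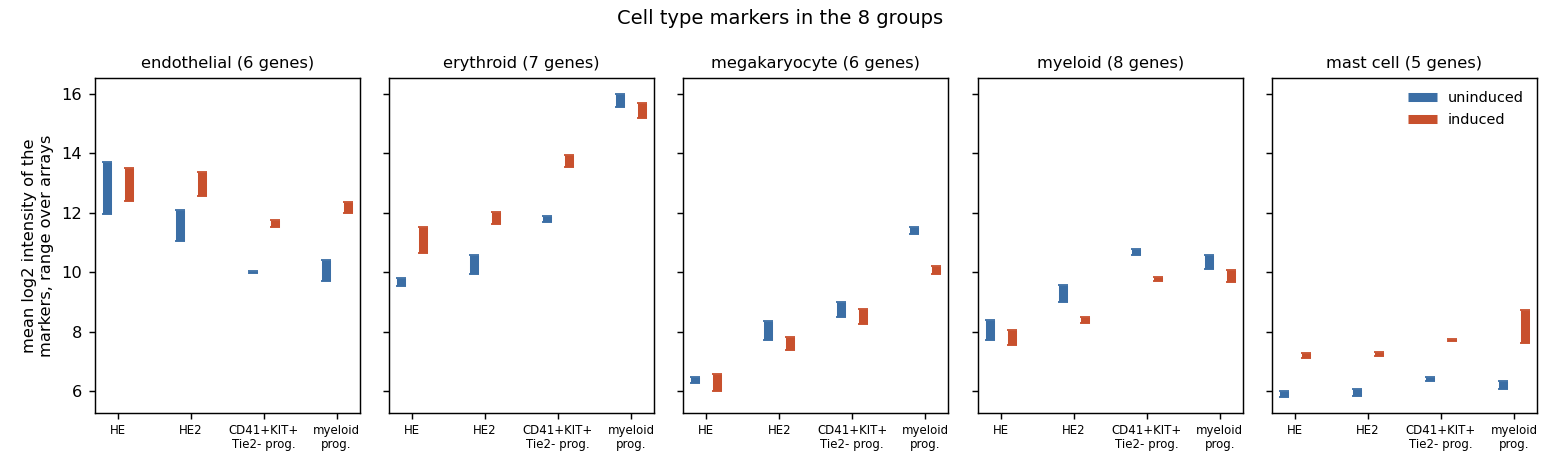
Mean log2 intensity of 5 lists of marker genes in each population without and with RUNX1-ETO, where bars span the lowest to the highest array of a group in the fit. The erythroid bars reach their highest levels in myeloid progenitors, at 15.57 to 16.01 without Dox.

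A gene was called changed when limma gave an unadjusted P no higher than 0.001 together with a 2-fold or greater change, and all changes are differences of log2 intensity. With Dox, 1 of the 8 genes was called in HE, where 7.09% of all genes tested were called. For HE2 the count was 2 (7.22% of all genes), for progenitors 1 (3.73%) and for myeloid progenitors 3 (6.31%). Along the uninduced course, 3 genes were called from HE to HE2 (5.07% of all genes), 5 from HE2 to progenitors (5.39%) and 3 from progenitors to myeloid progenitors (13.9%). With Dox these numbers were 1 (3.1%), 4 (7.36%) and 1 (7.37%). Over the whole course from HE to myeloid progenitors, a comparison added after the values were seen, 7 genes were called without Dox (26.3% of all genes) and 5 with it (21.7%). The share of members called was thus above the background in every comparison named here with 2 or more genes called. These include the Dox responses of HE2 and of myeloid progenitors. Where 1 of 8 was called, as with Dox in HE, no smaller share above 0 was possible. Several of these counts moved under the alternatives given below. Since the 8 genes were chosen with earlier results of these data known, this is a description and not a test.

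**Figure D2:**
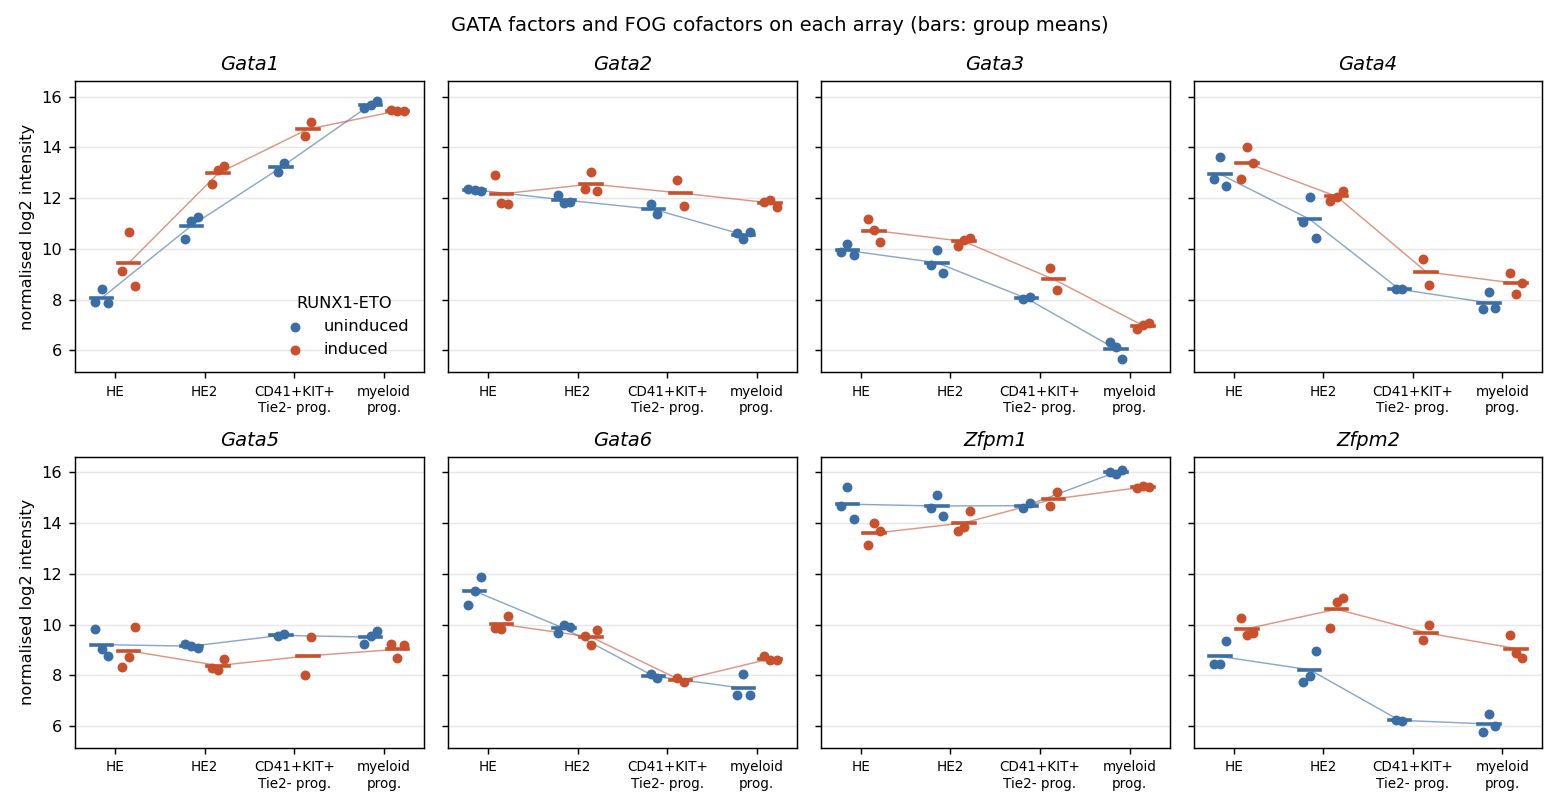
Normalised log2 intensity of the 8 genes on each of the 22 arrays, without (blue) and with (red) RUNX1-ETO, with bars for group means and thin lines joining them. Gata1 rises along the course from a mean of 8.07 in uninduced HE to 15.68 in uninduced myeloid progenitors, while Gata3, Gata4 and Gata6 fall and Zfpm2 falls without Dox to a mean of 6.08 while the induced myeloid progenitors have a mean of 9.06.

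Gata1, the master regulator of erythroid and megakaryocytic genes, rose at every step of the uninduced course. Its log2 intensity was 7.91, 8.43 and 7.86 in HE, 10.38, 11.10 and 11.25 in HE2, 13.02 and 13.40 in progenitors and 15.56, 15.65 and 15.83 in myeloid progenitors. No array of a population overlapped with the one before it. The steps were 2.84 (SE 0.385, adjusted P = 0.000109), 2.30 (SE 0.431, adjusted P = 0.00168) and 2.47 (SE 0.431, adjusted P = 0.000314), and all 3 were called. The whole course came to 7.61 without Dox (195-fold, adjusted P = 2.25e-11) and 5.99 with it (63.7-fold, adjusted P = 1.12e-09). With the slide as a block the step into myeloid progenitors came to 2.08, and to 1.90 with the scan day as a block, and it was not called in either fit. The additional uninduced progenitor array, which shared slide 3 with the myeloid arrays, had a Gata1 value of 13.08, beside 13.02 and 13.40 on the others. The step from HE2 to progenitors was 2.11 and not called without uninduced progenitor array 2.

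With Dox, Gata1 rose in HE2, read higher without a call in HE and progenitors, and did not read higher in myeloid progenitors. In HE2 the induced arrays read 12.54, 13.11 and 13.28, all above the uninduced arrays, a rise of 2.07 (SE 0.385, adjusted P = 0.00104, n = 3 against 3 in the fit with limma) that was 1.80 within slide 1 and 1.94 within slide 2. In HE the induced arrays read 9.12, 10.67 and 8.53, and the difference of 1.37 (SE 0.385, adjusted P = 0.0199) was not called, although the groups did not overlap. It ranged with the array left out from 0.76 without induced HE array 2 to 1.83 without induced HE array 3, where it passed the threshold. In progenitors the arrays read 14.43 and 15, with a mean 1.51 above the uninduced mean (SE 0.472, adjusted P = 0.0727), which was not called. In myeloid progenitors the induced arrays read 15.46, 15.42 and 15.42, a difference of -0.25 (95% interval -1.06 to 0.56). For Gata1, induced HE2 thus stood at a mean of 12.98, beside 13.21 in uninduced progenitors, the next population in the course. Other members differed, as the induced HE2 means of Gata3 (10.29) and Gata4 (12.07) lay above those of uninduced HE2 (9.46 and 11.17), without a call. In uninduced HE, the population before, these means were 9.94 and 12.94.

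With Dox, Gata1 also rose along the course, by 3.54 from HE to HE2 (adjusted P = 2.07e-05) and by 1.74 from HE2 to progenitors (adjusted P = 0.00984), and by 0.72 from progenitors to myeloid progenitors, which was not called. The second of these steps fell below the threshold without induced HE2 array 1 or 2 or induced progenitor array 1 or 2 (1.46 to 2.02), and with the slide as a block (1.68). That step also lost its call with scaling to the 75th percentile (1.54) and when the 2 groups were fitted alone. The Dox responses of HE2 and myeloid progenitors were apart by -2.31 (SE 0.545, adjusted P = 0.0294), a comparison added after the values were seen, in which 2 of the 8 genes and 2.19% of all genes were called. Leaving out uninduced HE2 array 1, induced HE2 array 2 or 3, or any myeloid array other than uninduced array 1 kept the Gata1 difference between -2.33 and -2.05 but moved it below the threshold.

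Erythroid genes were called with Dox in part, and whether they depend on GATA1 in these cells was not tested. Of 16 erythroid genes tested, 4 rose and 1 fell with Dox in HE, 5 rose and 1 fell in HE2, 6 rose in progenitors, and 1 fell in myeloid progenitors. Alas2, the first enzyme of haem synthesis in red cells, rose by 3.23, 3.09 and 4.02 in the 3 sorted populations, and embryonic globin Hbb-y by 3.23, 4.34 and 4.47. Klf1, an erythroid transcription factor, was not called in any population, with differences of -0.02, -0.16, 0.29 and -1.12. Nfe2, which encodes a subunit of the erythroid factor NF-E2, fell by 1.19 in HE and fell by 1.38 in HE2. Klf1 and Nfe2 were chosen after their values were seen. The list medians were 0.05, 0.19, 0.61 and -0.47 in HE, HE2, progenitors and myeloid progenitors, while those of all genes tested were between -0.04 and -0.01. From progenitors to myeloid progenitors without Dox, 13 of the 16 erythroid genes rose, with a median change of 3.30 beside a median over all genes tested of -0.12.

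Of 14 megakaryocyte genes, 3 fell with Dox in HE, where the changes were -3.21 for Itga2b, -2.86 for Vwf and -2.19 for Gp1ba. The gene Itga2b encodes CD41, the surface marker by which HE was sorted. In HE2, 1 rose and 1 fell, in progenitors 4 rose, and in myeloid progenitors 7 fell, led by the platelet chemokine genes Pf4 (-1.84) and Ppbp (-1.72). The list medians were -0.42, -0.53, 0.02 and -1.05 in the 4 populations. The 4 genes that rose in progenitors were led by Tubb1 (2.85), the platelet tubulin, and F2rl2 (2.23).

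**Figure D3:**
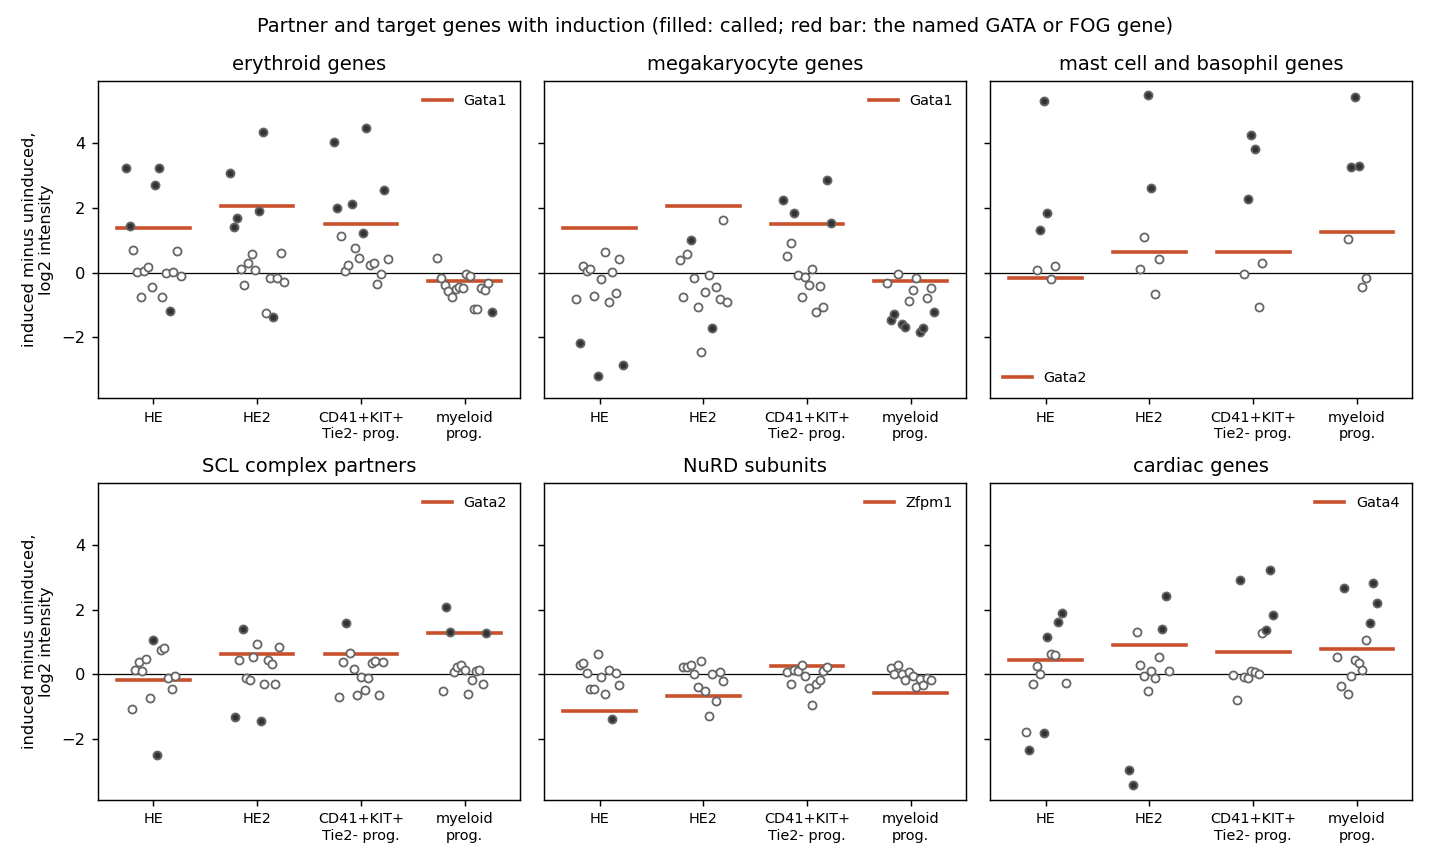
Log2 change with RUNX1-ETO induction of the genes of 6 lists in 4 populations, with filled points for called genes and a red bar for the change of the GATA or FOG gene named in each panel. In myeloid progenitors the megakaryocyte genes called all fell while Hdc of the mast cell list rose by 5.43.

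Gata2, the factor of haemogenic endothelium and early progenitors, was nearly level along the first steps. It read 12.37, 12.33 and 12.28 in uninduced HE, 12.13, 11.80 and 11.85 in HE2, 11.76 and 11.36 in progenitors and 10.62, 10.38 and 10.66 in myeloid progenitors. No single step was called, and the last was -1.01 (SE 0.326, adjusted P = 0.0237), which turned to 0.03 with the scan day as a block. That block value rests on the 2 induced progenitor arrays, which read 12.72 and 11.68 on different scan days. Over the whole uninduced course Gata2 fell by 1.78 (SE 0.291, adjusted P = 5.78e-05), and this change was -0.83 with the slide as a block and -0.74 with the scan day as a block, below the threshold in both. The additional progenitor array on slide 3 read 10.87, below the other uninduced progenitor arrays. Gata1 and Gata2 thus moved in opposite directions over the uninduced course.

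With Dox, Gata2 was called in myeloid progenitors, where the induced arrays read 11.86, 11.94 and 11.63, all above the uninduced arrays. The rise was 1.26 (SE 0.291, adjusted P = 0.00628), on the threshold's edge, since it was 1.17 to 1.32 and not called without uninduced array 1, 2 or 3 or induced array 1 or 2. In HE the induced arrays read 12.90, 11.81 and 11.78 and overlapped with the uninduced ones, with a difference of -0.17 (95% interval -0.78 to 0.44) that was 0.54 within slide 1 and -0.49 within slide 2. In HE2 they read 12.36, 13.04 and 12.26, higher by 0.62 (SE 0.291, adjusted P = 0.161), and in progenitors 12.72 and 11.68, higher by 0.64 (SE 0.357, adjusted P = 0.335). The progenitor value was 0.12 without induced array 1 and 1.16 without induced array 2. Induced progenitor array 2 lay on slide 3, apart from both uninduced arrays in the fit. Within slide 1 the difference was 0.96, and on slide 3 the additional uninduced array read 10.87, below the 11.68 of induced array 2. With Dox the whole course from HE to myeloid progenitors came to -0.35 (95% interval -0.96 to 0.27). The difference between the responses of HE and myeloid progenitors was 1.43 (SE 0.412, adjusted P = 0.0425), which was not called. It was called without induced HE array 1, at 1.80.

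Of 7 mast cell and basophil genes, which include Gata2 itself, 3 rose with Dox in HE and in progenitors, 2 rose in HE2, 4 rose in myeloid progenitors, and none fell. Histidine decarboxylase, Hdc, rose by 5.31, 5.47, 4.25 and 5.43 in the 4 populations, and Il1rl1, the IL-33 receptor, by 1.83, 2.62, 3.81 and 3.28. Of the 5 mast cell markers, 2 were well above background on all and 2 on none of the induced myeloid progenitor arrays. Of 13 partners of GATA1 and GATA2 in the SCL complex, 1 rose and 1 fell with Dox in HE, 1 rose and 2 fell in HE2, 1 rose in progenitors, and 3 rose in myeloid progenitors. These 3 were the ETS factor genes Erg (2.08) and Fli1 (1.29) and the E-box factor gene Tcf4 (1.28). In HE the change was -2.5 for Lyl1 and 1.06 for Lmo2. The median changes of the mast cell list were 0.19, 0.62, 0.64 and 1.26 and those of the SCL list 0.10, 0.32, 0.17 and 0.12 in the 4 populations. In HE2, progenitors and myeloid progenitors the mast cell median equals the change of Gata2 itself. It thus adds nothing there on the size of the other changes.

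Gata3, known for T cells, was lower at each later population. Its uninduced values were 9.87, 10.19 and 9.75 in HE, 9.35, 9.96 and 9.05 in HE2, 8.01 and 8.09 in progenitors and 6.33, 6.14 and 5.67 in myeloid progenitors, where 2 of 3 arrays were well above background. The steps from HE2 to progenitors (-1.41, SE 0.297, adjusted P = 0.0046) and from progenitors to myeloid progenitors (-2.0, SE 0.297, adjusted P = 6.64e-05) were called. The first of them was -1.44 to -1.15 and not called without uninduced HE2 array 2 or uninduced progenitor array 1 or 2. The first also lost its call when the 2 groups were fitted alone. The second was -1.28 with the slide as a block and not called, while the additional progenitor array on slide 3 read 7.89.

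With Dox, Gata3 was higher in all 4 populations, with no overlap between groups, but by less than 2-fold and without a call. The induced arrays read 11.16, 10.73 and 10.28 in HE, 10.11, 10.36 and 10.41 in HE2, 9.23 and 8.38 in progenitors and 6.86, 7.0 and 7.08 in myeloid progenitors. HE differed by 0.79 (adjusted P = 0.0533), HE2 by 0.84 (adjusted P = 0.0371), progenitors by 0.75 (adjusted P = 0.202) and myeloid progenitors by 0.93 (adjusted P = 0.0244). The difference in HE2 was 1.09 and called without uninduced HE2 array 2. That in progenitors was 0.33 without induced array 1 and 1.18 without induced array 2, which lay on slide 3. Within slide 1 it was 1.22, and on slide 3 the additional uninduced array read 7.89, below the 8.38 of induced array 2. The induced course fell by 1.49 from HE2 to progenitors and fell by 1.82 from progenitors to myeloid progenitors, both called. The step from HE2 was -1.06 and not called without induced progenitor array 2, and -1.23 and not called with the slide as a block. This step also lost its call when the 2 groups were fitted alone. Of 5 early lymphoid genes tested, 1 fell with Dox in HE, the T cell kinase gene Lck, and none was called in the other populations.

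Gata4, a heart and endoderm factor, fell along the course. The uninduced arrays read 12.74, 13.61 and 12.48 in HE, 11.05, 12.03 and 10.42 in HE2, 8.41 and 8.41 in progenitors and 7.62, 8.31 and 7.68 in myeloid progenitors. The steps of -1.77 (SE 0.406, adjusted P = 0.00783) and -2.75 (SE 0.454, adjusted P = 0.000491) were called, and no arrays of neighbouring groups overlapped in either. The first was -1.44 without uninduced HE array 2, -1.72 without uninduced HE2 array 1 and -1.40 without uninduced HE2 array 3, and lost its call each time. It also lost its call with scaling to the 75th percentile (-1.78) and when the 2 groups were fitted alone. Over the whole course Gata4 fell by 5.07 (adjusted P = 8.28e-09).

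With Dox, no change of Gata4 was called. The induced arrays read 12.74, 14.03 and 13.37 in HE, 11.87, 12.04 and 12.29 in HE2, 9.61 and 8.58 in progenitors and 9.05, 8.24 and 8.64 in myeloid progenitors. The differences were 0.44, 0.90, 0.69 and 0.77, and the groups overlapped in HE, HE2 and myeloid progenitors. The HE value had opposite signs within slide 1 (-0.43) and slide 2 (1.22). The progenitor value was 0.17 without induced array 1 and 1.20 without induced array 2, which lay on slide 3. Within slide 1 the progenitor value was 1.20, and on slide 3 the additional uninduced array read 7.86, below the 8.58 of induced array 2. The induced course fell by 2.97 from HE2 to progenitors (adjusted P = 0.000217), and its first step of -1.31 was not called.

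Gata5, a factor of endocardium and gut, was called in none of the 18 comparisons. Its group means lay between 8.39 and 9.57. Its differences with Dox, in the order of the course, were -0.24, -0.77, -0.81 and -0.48. The HE value had opposite signs within slide 1 (-1.11) and slide 2 (0.52). The progenitor value was -0.07 without induced array 1 and -1.55 without induced array 2, which lay on slide 3. Within slide 1 the progenitor value was -1.51, and on slide 3 the additional uninduced array read 10.39, above the 9.51 of induced array 2. The 95% interval in HE2 was -1.56 to 0.03, and the arrays did not overlap there, with 9.22, 9.14 and 9.09 without Dox and 8.27, 8.23 and 8.66 with it.

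Gata6, a factor of primitive endoderm and heart, changed with Dox in opposite directions in HE and in myeloid progenitors. In HE the uninduced arrays read 10.78, 11.32 and 11.86 and the induced arrays 9.87, 9.83 and 10.33. This fall by 1.31 (SE 0.259, adjusted P = 0.00167) was -1.18 within slide 1 and -1.78 within slide 2, and it missed the threshold when the 2 groups were fitted alone. In myeloid progenitors the uninduced arrays read 7.21, 8.05 and 7.21 and the induced arrays 8.77, 8.59 and 8.59, a rise of 1.16 (SE 0.259, adjusted P = 0.00478). That rise was 1.02 without uninduced array 1 or uninduced array 3 and 1.1 without induced array 1, and lost its call in each case and when the 2 groups were fitted alone. In neither population did the groups overlap. The differences of -0.34 in HE2 and -0.17 in progenitors were not called.

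The interaction of Dox and population for Gata6 between HE and myeloid progenitors was 2.47 (SE 0.366, adjusted P = 0.000399), the 1 gene of 8 called in that comparison, in which 4.72% of all genes were called. Between HE2 and myeloid progenitors it was 1.5 (SE 0.366, adjusted P = 0.034), and it lost its call, at 1.35 to 1.53, without uninduced HE2 array 2 or 3, induced HE2 array 1 or 2, uninduced myeloid array 1 or 3, or any of the induced myeloid arrays. No member was called between HE and HE2 (1.34% of all genes), between HE2 and progenitors (0.645%) or between progenitors and myeloid progenitors (1.5%), where in the last Gata6 became called at 1.61 without uninduced myeloid array 2. Between HE and HE2 the Gata6 responses differed by 0.97 (adjusted P = 0.349).

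Along the uninduced course Gata6 fell by 1.47 from HE to HE2 (adjusted P = 0.00113) and fell by 1.88 from HE2 to progenitors (adjusted P = 0.000244). The step from HE was -1.22 within slide 1 and -1.97 within slide 2, and it lost its call when the 2 groups were fitted alone. With Dox the first step was -0.51 and not called, and the second was -1.70 (adjusted P = 0.000545), which lost its call with the slide as a block (-1.51). Induced HE stood at a mean of 10.01, beside 9.85 in uninduced HE2. From progenitors to myeloid progenitors with Dox, Gata6 read higher by 0.84 (adjusted P = 0.051), which was not called. Over the whole course it fell by 3.83 without Dox (adjusted P = 9.2e-10) and fell by 1.36 with it (adjusted P = 0.000322), and the second lost its call with the slide (-1.1) or the scan day (-1.22) as a block.

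The partners and targets of GATA4, GATA5 and GATA6 in the heart were mixed. Of 12 such genes tested, 3 rose and 2 fell with Dox in HE, 2 rose and 2 fell in HE2, and 4 rose in progenitors and in myeloid progenitors. Tbx5, a heart transcription factor, rose by 1.61, 1.41, 1.38 and 1.59 in the 4 populations, and Hand1, a factor of heart and extraembryonic mesoderm, fell by 2.35 in HE and fell by 3.43 in HE2. The list medians were 0.13, 0.09, 0.08 and 0.48. Of 5 endoderm genes tested, 1 rose and 1 fell with Dox in HE, 1 fell in HE2, 1 rose in progenitors and 2 rose in myeloid progenitors, with list medians of -0.19, 0.40, -0.30 and 0.52. Foxa2 fell by 2.44 in HE and fell by 2.01 in HE2, whereas its relative Foxa1 rose by 1.41 in HE and by 1.38 in myeloid progenitors. Sox7, also an endothelial factor, rose by 3.57 in progenitors and by 1.83 in myeloid progenitors. Without Dox, 5 of the 12 heart genes fell from HE2 to progenitors and none rose.

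**Figure D4:**
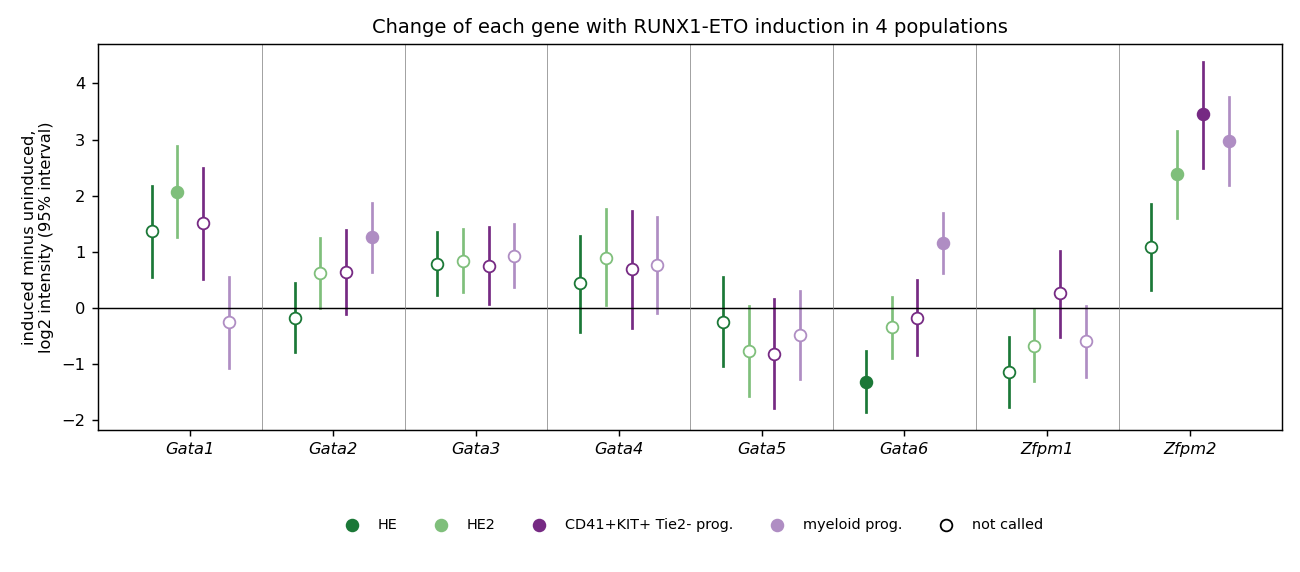
Log2 change of each gene with RUNX1-ETO induction in HE, HE2, progenitors and myeloid progenitors, with 95% intervals from limma and filled points for called changes. Zfpm2 has called rises in 3 populations (2.39, 3.45 and 2.98), and Gata6 lies below 0 in HE and above 0 in myeloid progenitors.

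Zfpm2, the FOG2 partner of GATA4, had larger changes with Dox than the other 7 genes in every population except HE, where the differences of Gata1, Gata6 and Zfpm1 were larger. In HE2 the uninduced arrays read 7.75, 7.96 and 8.95 and the induced arrays 9.88, 10.90 and 11.04, a rise of 2.39 (SE 0.368, adjusted P = 0.000205). In progenitors 6.25 and 6.21 became 9.38 and 9.97, a rise of 3.45 (SE 0.451, adjusted P = 0.000126). In myeloid progenitors 5.78, 6.47 and 6.00, of which 2 of 3 were well above background, became 9.60, 8.88 and 8.69, a rise of 2.98 (SE 0.368, adjusted P = 1.82e-05). Every induced array lay above every uninduced array in these populations, and the rise held its call when any 1 array was left out.

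In HE the Zfpm2 values were 8.45, 8.43 and 9.35 without Dox and 10.25, 9.60 and 9.66 with it. The groups did not overlap, but the difference of 1.09 (SE 0.368, adjusted P = 0.0528) was not called, and it was 1.81 within slide 1 and 0.28 within slide 2. In HE2 it was 2.03 within slide 1 and 2.02 within slide 2, and in progenitors 3.13 on slide 1, with 1 array in each group. The other Zfpm2 probe was called in the same 3 populations, with 2.36 for HE2, 2.99 for progenitors and 2.68 for myeloid progenitors. The responses of HE and progenitors differed by 2.35 (SE 0.582, adjusted P = 0.0279), a comparison added after the values were seen, in which 1 of the 8 genes and 2.97% of all genes were called. This difference was 1.95 and not called with the other probe, 2.15 and not called with the additional progenitor array included, and 2.05 to 2.65 and not called without uninduced HE array 3, induced HE array 2 or 3, or any of the 4 progenitor arrays.

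Without Dox, Zfpm2 fell by 1.99 from HE2 to progenitors (SE 0.412, adjusted P = 0.00385). The call was lost without uninduced HE2 array 3 (-1.62), without uninduced progenitor array 1 (-2.0) or 2 (-1.97), and with the other probe (-1.67). The call was also lost when the 2 groups were fitted alone. Over the whole uninduced course Zfpm2 fell by 2.67 (adjusted P = 8.49e-06), while with Dox the difference was -0.78 (adjusted P = 0.0928), which was not called. Of the 6 endothelial markers, none was called with Dox in HE, 2 rose in HE2 and likewise 2 in progenitors, while 5 rose in myeloid progenitors. Their medians were 0.17, 1.25, 1.58 and 2.20. Emcn, the endomucin gene, rose by 2.84, 3.42 and 2.97 in these 3 populations (HE2, progenitors, myeloid progenitors) and Esam, an endothelial adhesion gene, by 1.38, 1.83 and 2.16. These 2 markers were chosen after their values were seen, and the part of endothelial RNA in the Zfpm2 change was not tested.

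Zfpm1, the FOG1 partner of GATA1, was well above background on all 22 arrays and moved little before the myeloid stage. Its uninduced values were 14.66, 15.41 and 14.16 in HE, 14.61, 15.11 and 14.29 in HE2, 14.59 and 14.78 in progenitors and 15.99, 15.94 and 16.09 in myeloid progenitors. The last step, of 1.32 (SE 0.332, adjusted P = 0.00553), was called, and the groups did not overlap. It was 0.95 and not called with the other Zfpm1 probe, 0.89 with scaling to the 75th percentile, 0.74 with the slide as a block, and 1.23 to 1.41 and not called without any 1 of the 5 arrays. The additional progenitor array on slide 3 read 14.57. Over the whole course Zfpm1 rose by 1.26 without Dox (adjusted P = 0.00172) and by 1.81 with it (adjusted P = 7.79e-05). The uninduced change lost its call without uninduced HE array 1 or 3 or any of the uninduced myeloid arrays (0.97 to 1.30), and both lost it with the slide as a block (0.69 and 1.23). The erythroid and megakaryocyte markers moved beside Zfpm1 and Gata1 at this step, and their part was not tested.

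With Dox, no change of Zfpm1 was called. In HE the induced arrays read 13.12, 14.00 and 13.68, all below the uninduced arrays, with a difference of -1.14 (SE 0.297, adjusted P = 0.0125) just outside the threshold. It was -1.43 and called without uninduced HE array 3 and -1.34 and called without induced HE array 2, and it was -1.91 within slide 1 and -0.32 within slide 2. The other differences were -0.67 (HE2), 0.26 (progenitors) and -0.59 (myeloid progenitors), and in the last the induced arrays read 15.39, 15.45 and 15.41. The difference in progenitors changed its sign with scaling to the 75th percentile, to -0.08.

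The NuRD subunits that FOG1 recruits had list medians between -0.09 and 0.02 with Dox. Of 12 tested, 1 fell with Dox in HE, Mta3 (-1.37), and none was called in HE2, progenitors or myeloid progenitors in the limma fit. Of 8 other genes with a GATA-type zinc finger, which include Mta3 and the repressor Trps1, the call was again Mta3 in HE. Without Dox, Trps1 and Gatad2a were the 2 of these 8 that fell from progenitors to myeloid progenitors.

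The patterns of the members over the 22 arrays were compared with those of all other genes by Pearson correlation, as a description in which the arrays share normalization and slides. The genes most like Gata1 were Rgs10 (0.980), Matn1 (0.970) and Ncf4 (0.968). For Gata2 they were Tcf4 (0.939), Lrrc8b (0.922) and Rhoj (0.905). For Gata3 they were Smad6 (0.978), Tacc2 (0.977) and Slc38a4 (0.976). For Gata4 they were Epn2 (0.983), Sec24d (0.982) and Wfs1 (0.982), and for Gata5 Slc35e1 (0.909), Galns (0.899) and Nxnl1 (0.891). For Gata6 they were Gngt2 (0.962), Nfib (0.956) and Col4a2 (0.953). Zfpm1 was most like Ada (0.945), Htt (0.926) and Nacc2 (0.919), and Zfpm2 like Gimap8 (0.955), Ptprb (0.946) and Tmcc3 (0.942), of which Ptprb encodes an endothelial phosphatase. Over the 8 group means, Epn2, Gngt2 and Ada again ranked among the 3 genes most like Gata4, Gata6 and Zfpm1.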

How the data were processed

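RNA of 23 samples was hybridised to 1-colour Agilent SurePrint G3 Mouse 8x60K arrays on 3 slides. The authors deposited the median intensity of each spot and of its local background, as Agilent Feature Extraction gave it per the file headers, not normalized. Normalized log2 values were deposited too, made by the authors per the study's methods with normexp and quantile normalization, and were used as an alternative only. They correlated at 0.9702 to 0.9997 with the normexp-corrected log2 values computed here, taken before quantile normalization. Spot intensities were corrected with normexp (offset 16), quantile-normalized over 23 arrays and set on the log2 scale with limma 3.58.1 in R 4.3.3, without 3671 control spots and outlier spots. Of 55681 probes, 26582 had a gene symbol through RefSeq identifiers (from the RefSeq annotation of GRCm38.p6, names only, since the array was annotated on another build). The probe with the highest mean stood for a gene, and 15202 of 20145 genes reached a log2 intensity of 6.5 on at least 1 array.

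The 8 group means were fitted by limma to 22 arrays (lmFit and eBayes, 14 residual degrees of freedom), with P values adjusted over all 15202 genes by Benjamini and Hochberg. Labels call the arrays replicates, and where they do not name separate cultures, P values measure the spread between these samples alone. Samples were taken as paired when at least 3 replicate numbers were shared and every correlation of deviations passed a set positive limit. This held for uninduced HE and HE2 (0.394, 0.797 and 0.610), which the main fit still compared unpaired, and for no other comparison with 3 pairs. Comparisons with CD41+KIT+Tie2- progenitors had 2 pairs and could not meet this rule. The fit was tested on simulated data. The 8 genes and the gene lists were chosen with earlier results of these data known. Named genes were the 8 genes, up to 4 called genes per list and comparison with the largest changes, and the 3 genes most correlated with each of the 8. The comparisons over the whole course and the Dox responses of HE against progenitors, HE2 against myeloid progenitors and progenitors against myeloid progenitors were added after the values were seen. Alternatives were other background corrections, scalings, filters, probes, thresholds, blocks and leaving out each array. The number of arrays limits the precision. Columns of scanner flags other than those for background, saturation and outliers were not used here.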

Additional observations from a re-analysis of the deposited data

Results flagged for a closer look

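The effect of Dox differed between populations by a test of the difference itself in 4 cases. The Gata6 response was higher in myeloid progenitors than in HE by 2.47 on the log2 scale (adjusted P = 0.000399 in limma), with a fall in HE and a rise in myeloid progenitors and no overlap between groups in either. The Gata6 response was also higher in myeloid progenitors than in HE2, by 1.5 (adjusted P = 0.034 in limma). The Gata1 response was lower in myeloid progenitors than in HE2, by -2.31 (adjusted P = 0.0294 in limma). The Zfpm2 response was higher in progenitors than in HE, by 2.35 (adjusted P = 0.0279 in limma). In the first 3 cases the populations also differed in time with Dox, stage at its start and medium, which cannot be told apart here. The last 3 come from comparisons added after the values were seen and lose their calls when any of several single arrays is left out.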

How the results depend on the processing

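Of 40 called changes of the 8 genes, set against every alternative, 732 results kept their call, 106 lost it and 0 changed sign. The 732 include the results with the 2-fold limit alone, which drops the P limit on the same changes and so could not lose a call. Gata1 to Gata6 had 1 probe each, so that the settings with the other probes or the mean of all probes left their log2 values unchanged. With an adjusted P of at most 0.05 in place of the unadjusted limit, 3 genes were called with Dox in HE and 3 in the difference of the responses of HE and myeloid progenitors. With the 2-fold limit alone, the counts were 4 with Dox in HE, 2 with Dox in progenitors, 2 from HE to HE2 with Dox, and, for differences of responses, 1 for HE and HE2, 1 for HE2 and progenitors, 4 for HE and myeloid progenitors, 3 for HE and progenitors and 2 for progenitors and myeloid progenitors. With only the groups of a comparison in the fit, they were 0 with Dox in HE, 1 from HE to HE2 and 3 from HE2 to progenitors without Dox, 2 from HE2 to progenitors with Dox, and 1 for the responses of progenitors and myeloid progenitors. With the replicate block, the count with Dox in HE was 3 in place of 1, and the block moved no other count of the 8 genes past 1.5 times. With the slide as a block, the counts were 0 from progenitors to myeloid progenitors without Dox, 1 from HE2 to progenitors with Dox, 3 from HE to myeloid progenitors with Dox, 2 for the responses of HE and myeloid progenitors, 0 for HE and progenitors and 1 for HE2 and myeloid progenitors. With the scan day as a block, they were 0, 2 and 3 for the first 3 of these and 0 for the responses of HE and progenitors. That last count was also 0 with an offset of 50, the deposited log2 values, the mean of all probes, the third uninduced progenitor array or the other probes, and scaling to the 75th percentile gave 1 for HE2 and myeloid progenitors. The cause was not tested.

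Leaving out single arrays gave 1 to 2 genes with Dox in HE, 1 to 3 in myeloid progenitors, 2 to 5 from HE2 to progenitors without Dox and 2 to 4 with it, and, for the responses, 1 to 2 for HE and myeloid progenitors and 0 to 1 for HE and progenitors, for HE2 and myeloid progenitors and for progenitors and myeloid progenitors. Where this left 1 array in a group, that array was assumed to vary like the others. The Gata2 difference with Dox in HE was -0.54 to 0.02 and that of Gata5 -0.70 to 0.09 without single arrays. The Zfpm1 difference with Dox in progenitors was -0.08 with 75th percentile scaling, -0.04 with the slide and -0.03 with the scan day as a block, and -0.03 to 0.54 without single arrays. The Gata2 step from progenitors to myeloid progenitors without Dox was 0.03 with the scan day as a block, which rests on the 2 induced progenitor arrays. Scaling to the 75th percentile shifted the median of all genes by -0.15 with Dox in progenitors and by -0.13 in myeloid progenitors. Of 64 changes of the 8 genes with an unadjusted P of 0.05 or more outside the Dox comparisons, 31 changed sign in at least 1 alternative, the largest of them being 0.56 in size. Signal over background limits Gata3 and Zfpm2 in uninduced myeloid progenitors, where 2 of 3 arrays were well above it.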

Other observations

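The uninduced progenitor array left out of the tests read 13.08 for Gata1, 10.87 for Gata2, 7.89 for Gata3 and 7.86 for Gata4. It read 10.39 for Gata5, 7.68 for Gata6, 14.57 for Zfpm1 and 6.84 for Zfpm2. Its Gata2, Gata3, Gata4, Gata6 and Zfpm1 values lay below both other uninduced progenitor arrays, those of Gata5 and Zfpm2 above both, and that of Gata1 between them.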
